A study of Mus musculus with 41 samples.

Results

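The transforming growth factor beta (TGF-beta) ligands *Tgfb1*, *Tgfb2* and *Tgfb3* and the receptor gene *Tgfbr1* were 4 of the 54 target genes measured by TaqMan qPCR in tissue from 41 mice. They were chosen by name, and every mouse entered. The level of a gene in a mouse was taken as the Ct of 18S (*Rn18s*) minus the Ct of the gene, where the Ct is the PCR cycle at which product crosses the detection threshold. A level is thus on a log2 scale, and 1 unit stands for 2 times the template relative to 18S. A level was obtained in all 41 mice for *Tgfb1*, *Tgfb3* and *Tgfbr1* and in 40 for *Tgfb2*, which made 163 of 164 values.

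All mice were female NSG, an immunodeficient strain that lacks mature lymphocytes but keeps macrophages, and their age was not given in the sources used here. The P group received P nanomesh, an electrospun degradable mesh of a copolymer of lactic acid and caprolactone, under the skin of the lower abdomen. The P+eMSC group received the same mesh with human endometrial mesenchymal stem/stromal cells (eMSC) placed on it, and the sham controls were the calibrator of the study. At 1 week there were 7 sham, 6 P and 7 P+eMSC mice, and at 6 weeks there were 6 sham, 8 P and 7 P+eMSC mice. Each mouse is 1 animal by its number in the labels, some animals had already served an earlier study, and a host without lymphocytes limits what the model holds of a foreign body response. The tissue was measured in bulk, so fewer cells of a type and less RNA per cell cannot be told apart.

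TGF-beta ligands are secreted in a latent complex, from which integrins and proteases release them. The active ligand binds the type II receptor, which recruits and phosphorylates the type I receptor encoded by *Tgfbr1*, and Smad proteins then carry the signal to the nucleus. In wounded skin and around implants the pathway is known for driving fibroblasts to lay down collagen and for restraining inflammation. *Tgfb1* is the ligand most often linked to wound repair and fibrosis, and *Tgfb2* and *Tgfb3* encode related ligands with their own roles in embryonic development.

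The genes lie on different chromosomes of the mouse genome (GRCm38.p6), *Tgfb1* on chromosome 7 at 25687002 to 25705077, *Tgfb2* on chromosome 1 at 186622787 to 186709697, *Tgfb3* on chromosome 12 at 86056743 to 86079041 and *Tgfbr1* on chromosome 4 at 47353222 to 47414926. The last 100 bases before an annotated start site are shown for the members with a RefSeq promoter entry, 3 of 4 (the first entry of *Tgfbr1*), because the levels of *Tgfb2* and *Tgfbr1* followed each other closely over the mice and that of *Tgfb1* did not (values are given with the likeness of the genes). Capitals mark the GC box GGGCGG, the CCAAT box and the TATA box TATAAA, each read on both strands, with no overlap between different motifs.
Tgfb1, chr7:25686902-25687001, plus strand: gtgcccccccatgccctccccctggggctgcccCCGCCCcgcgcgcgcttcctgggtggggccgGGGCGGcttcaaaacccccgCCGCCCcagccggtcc
Tgfb2, chr1:186705990-186706089, minus strand: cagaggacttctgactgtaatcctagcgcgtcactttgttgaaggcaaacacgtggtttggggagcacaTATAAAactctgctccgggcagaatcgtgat
Tgfbr1, chr4:47353122-47353221, plus strand: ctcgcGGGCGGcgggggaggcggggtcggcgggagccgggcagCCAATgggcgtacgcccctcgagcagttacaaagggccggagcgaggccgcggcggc

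The window of *Tgfb1* held 3 GC boxes and was 82.0% G and C, and that of *Tgfbr1* held 1 GC box and 1 CCAAT box and was 79.0% G and C. The window of *Tgfb2* held 1 TATA box and was 49.0% G and C. Over the same window of 32851 RefSeq promoters, 24.7% held a GC box, 18.9% a CCAAT box and 5.56% a TATA box, and the median G and C content was 55.0%. The windows of *Tgfb1* and *Tgfbr1* end at the base before the gene's annotated span, while that of *Tgfb2* lies inside it, before a start site internal to the gene. These are matches of letters and describe no binding, and their part in how the levels followed each other was not tested. The windows of *Tgfb2* and *Tgfbr1* shared none of the motifs. *Tgfb3* is named only.

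Among the P mice at 6 weeks, mouse 52 stood apart, with 31 of the 54 genes undetected, *Tgfb2* among them, and an 18S Ct of 7.79 against group medians of 6.60 to 6.94. Mouse 2356 was labelled P at 6 weeks, but the deposited fold changes of its TGF-beta genes equalled those calculated against the sham controls of 1 week. Both were kept as labelled, and the calls against 18S and of pairs at 6 weeks that rest on them are given with and without them. The interactions are given with 1 mouse left out at a time and over all alternatives. The fibroblast markers *Col1a1*, *Col3a1*, *Col6a1* and *Col6a3* were detected in all mice but mouse 52, in which *Col6a1* was undetected, and so was the epithelial marker *Cdh1*. Of the 5 macrophage and monocyte markers *Mrc1*, *Arg1*, *Ccr2*, *Ccr1* and *Nos2*, 2 were undetected in mouse 52 and 1 in mouse 78 (P+eMSC, 1 week). At 6 weeks, over mice with every marker of a list detected, the mean level of the fibroblast markers ran from -6.67 to -3.997 in the sham controls, from -8.85 to -5.04 in P and from -7.60 to -3.03 in P+eMSC. That of *Cdh1* ran from -14.03 to -6.90, from -18.99 to -8.63 and from -15.39 to -5.95 in the same order, and that of the macrophage and monocyte markers from -12.39 to -9.08, from -13.70 to -8.84 and from -14.03 to -8.77. The ranges overlapped in each list, no marker was undetected in a whole group, and their part in the results was not tested.

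*Tgfb3* had the largest shifts of the 4 genes between P and the other treatments at 6 weeks. In the sham controls its level had a lowest value of -8.94, a median of -8.05 and a highest value of -7.21, and in P+eMSC these were -9.04, -7.68 and -6.55. In P they were -18.46, -10.25 and -8.17. All 8 P mice lay below the sham mean, 6 of them below every sham mouse, and the groups overlapped through mice 121 and 437. With the sham mean taken over log2 levels and the difference turned into a ratio, the median P mouse stood at 0.220 and the median P+eMSC mouse at 1.30.

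At 1 week the level of *Tgfb3* ran from -9.64 to -7.93 in the sham controls (median -8.48), from -10.47 to -8.47 in P (median -9.80) and from -11.03 to -7.10 in P+eMSC (median -8.87). Of the 6 P mice, 4 lay below every sham mouse. Over the 6 groups, the medians ordered from lowest to highest as P at 6 weeks, P at 1 week, P+eMSC at 1 week, sham at 1 week, sham at 6 weeks and P+eMSC at 6 weeks. Each step in this order, 0.37 to 0.93, was smaller than the larger SD of the 2 neighbours.

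*Tgfb2* was tightest in the sham controls at 6 weeks, with -10.01, -9.24 and -8.96 as the lowest, median and highest level. In P at 6 weeks the 7 mice with a value ran from -13.80 to -9.46 with a median of -10.69, all of them below the sham mean and 5 below every sham mouse. P+eMSC lay between, from -11.21 to -8.70 with a median of -10.09. At 1 week the medians were -10.52 in the sham controls, -11.62 in P and -10.89 in P+eMSC, with ranges of -11.81 to -8.91, -12.17 to -9.82 and -13.21 to -9.91. The groups ordered from P at 1 week over P+eMSC at 1 week, P at 6 weeks, sham at 1 week and P+eMSC at 6 weeks to sham at 6 weeks. In this order only the last step, 0.85, was larger than the SD of both neighbours.

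*Tgfb1* overlapped widely in all groups. At 6 weeks its lowest, median and highest levels were -8.45, -7.71 and -6.23 in the sham controls, -16.52, -8.10 and -6.26 in P, and finally -8.82, -6.76 and -5.33 in P+eMSC. At 1 week they were -9.35, -7.85 and -5.57 in the sham controls, -9.80, -7.41 and -6.12 in P, and finally -10.96, -8.00 and -5.84 in P+eMSC. Both P mice above the sham mean at 6 weeks, 2307 and 2356, had *Tgfb3* below every sham mouse. The steps between neighbouring group medians, 0.10 to 0.65, were all smaller than the larger SD of the neighbours.

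*Tgfbr1*, which encodes the type I receptor, was also low in P at 6 weeks. Its lowest, median and highest levels were -10.57, -9.32 and -8.96 in the sham controls, -19.18, -10.43 and -9.51 in P, and finally -10.52, -9.25 and -8.27 in P+eMSC. All 8 P mice lay below the sham mean, and 4 of them, mice 52, 53, 438 and 2356, lay below every sham mouse and were among the 6 for which that held in *Tgfb3*, while 5 of 7 P+eMSC mice lay above the sham mean. At 1 week the ranges were -11.49 to -7.80 in the sham controls, -11.51 to -9.04 in P and -13.06 to -8.68 in P+eMSC, with medians of -9.84, -10.73 and -10.18. Every step between neighbouring group medians, 0.07 to 0.52, was smaller than the larger SD of the neighbours.

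**Figure D1:**
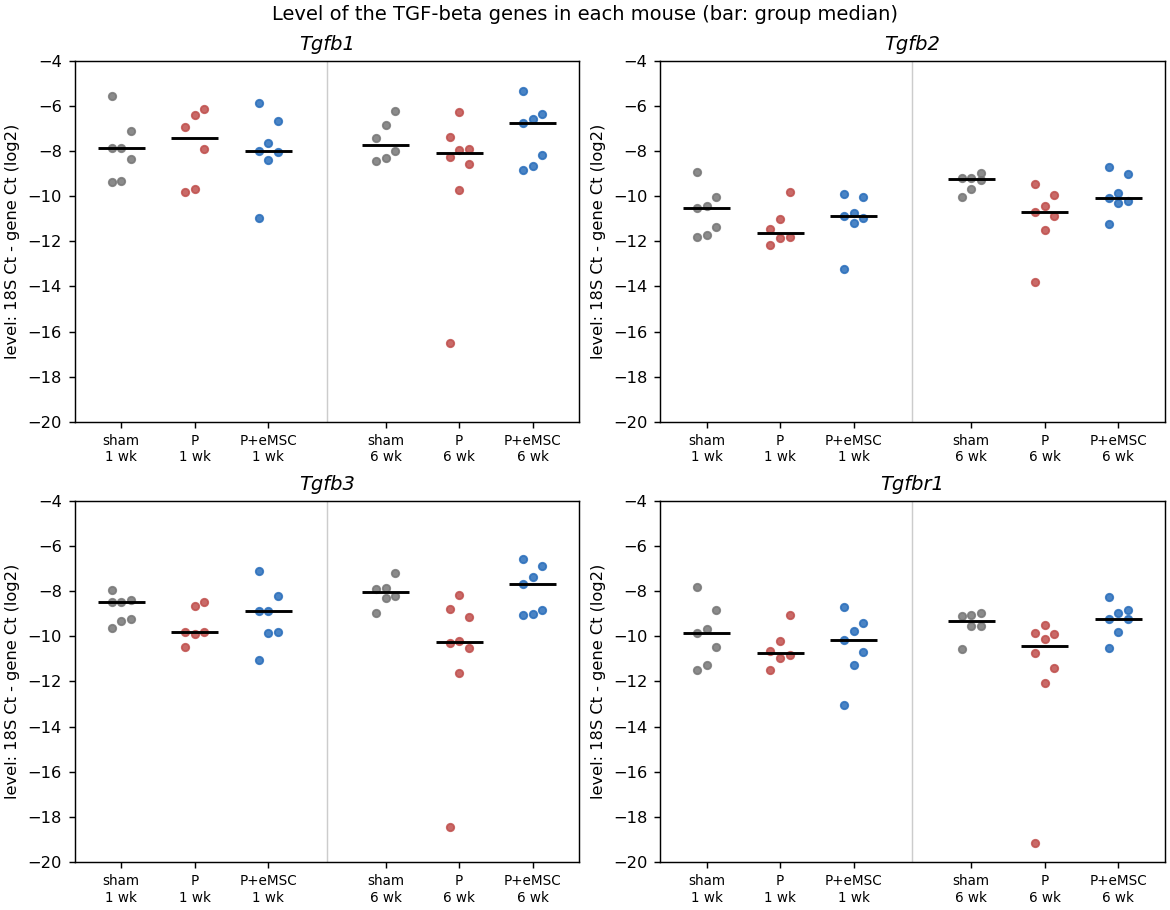
Level of each gene (18S Ct minus gene Ct, log2) in every mouse, by treatment and week, with a bar at the group median. The P mice at 6 weeks reach lower than the sham controls in all 4 genes, with mouse 52 at -16.52 in *Tgfb1*, -18.46 in *Tgfb3* and -19.18 in *Tgfbr1*.

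To ask what the mesh alone was accompanied by, P was set against the sham mice of the same week. At 6 weeks 3 of the 4 genes, *Tgfb3*, *Tgfb2* and *Tgfbr1*, fell at the unadjusted p threshold of the study, which lies just above 0.05, in a Mann-Whitney U test (exact, two-sided). *Tgfb3* was 4.19-fold lower (shift -2.07, 95% interval -3.71 to -0.59, exact p = 0.00799, adjusted p = 0.0551). The shift, here and below, is the Hodges-Lehmann estimate, the median of all differences between a mouse of one group and a mouse of the other in log2 level. *Tgfb2* was 2.49-fold lower (shift -1.31, -2.54 to -0.28, exact p = 0.00816, adjusted p = 0.0551) and *Tgfbr1* 2.06-fold lower (shift -1.04, -2.95 to -0.30, exact p = 0.0200, adjusted p = 0.0997). *Tgfb1* differed by -0.55 (-2.36 to 0.56, exact p = 0.414) and did not pass the test.

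Against 18S, 25.9% of the 54 genes of the panel were called at 6 weeks, all of them lower in P, and the median shift was -0.83 against -1.18 over the 4 TGF-beta genes. After Benjamini-Hochberg adjustment over the 54 genes none of the 4 lay below 0.05. With each mouse's median Ct over the panel as the reference, which leaves mouse 52 without a value, the median shift of all genes moved by 0.99 and none of the 4 was called: *Tgfb3* stood at -0.48 (exact p = 0.101), *Tgfb2* at -0.44 (exact p = 0.234), *Tgfbr1* at -0.05 (exact p = 0.945) and *Tgfb1* at 0.14 (exact p = 0.445). On that reference 7 genes of the panel were called, 4 higher and 3 lower in P, and with a panel median that keeps mouse 52, over the 23 genes detected in all 41 mice, 7 were called, all higher. Without mice 52 and 2356 the shift of *Tgfb3* was -1.46 (exact p = 0.0260), that of *Tgfb2* -1.22 (exact p = 0.0152) and that of *Tgfbr1* -0.80 (exact p = 0.0649), which no longer passed. *Tgfbr1* also missed the threshold in an exact permutation test of the means (p = 0.0583). Among mice numbered below 1000 (5 P and 4 sham mice) the shift was -2.26 for *Tgfb3* and -1.68 for *Tgfbr1*, and among those numbered above 2000 (3 P and 2 sham mice) it was -2.09 and -0.91. *Tgfb2* stood at -1.33 and -1.26 in the same series, while *Tgfb1* stood at -1.70 and 0.86 and so did not keep one direction.

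At 1 week 1 of the 4 genes was called between P and the sham controls, against 5.56% of the panel, 3 genes, all lower in P. *Tgfb3* was 1.55-fold lower in P (shift -0.63, -1.87 to 0.0026, exact p = 0.05128), at the edge of the threshold and above 0.05. The interval of *Tgfb2* ran from -1.83 to 0.63, that of *Tgfbr1* from -2.13 to 0.80 and that of *Tgfb1* from -1.95 to 2.25. Against the panel median *Tgfb3* was no longer called (-0.36, exact p = 0.366), and *Tgfb1* was higher in P (0.42, exact p = 0.0350), with 5 genes of the panel called, all higher. Over the 23 genes detected in all mice, 3 were called, all higher, and 0 of the 4 members. Leaving out mouse 125, 126, 132, 133, 400, 2269, 2308 or 2355 also ended the call of *Tgfb3* (exact p up to 0.106).

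The question of the study was whether eMSC change the response to the mesh, and P+eMSC compared to P alone showed *Tgfb3* and *Tgfbr1* higher at 6 weeks. *Tgfb3* was 4.72-fold higher (shift 2.24, 0.81 to 3.98, exact p = 0.00932, adjusted p = 0.158), with 4 of 7 P+eMSC mice above every P mouse. *Tgfbr1* was 2.61-fold higher (shift 1.39, 0.30 to 3.10, exact p = 0.00591, adjusted p = 0.158), with 5 of 7 above every P mouse. *Tgfb1* differed by 1.15 (-0.56 to 3.16, exact p = 0.336) and *Tgfb2* by 0.76 (-0.34 to 2.46, exact p = 0.128), and neither passed the test. These 2 calls of 4 stood against 18.5% of the 54 genes, all of those higher in P+eMSC, and the median shift was 1.27 over the 4 genes and 1.16 over the panel. This comparison shares its P mice with that against the sham controls.

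Against the panel median, which moved the median shift of all genes by -1.30, *Tgfb3* was the 1 gene of 54 that was called (shift 0.75, exact p = 0.0262, adjusted p = 0.795), while *Tgfbr1* stood at -0.07 (exact p = 0.805), *Tgfb2* at -0.16 (exact p = 0.902) and *Tgfb1* at 0.0077 (exact p = 1). With the panel median over the 23 genes that keeps mouse 52, *Tgfb3* stood at 0.69 (exact p = 0.281). Without mice 52 and 2356 the shift of *Tgfb3* against 18S was 1.56 (exact p = 0.0350) and that of *Tgfbr1* 0.96 (exact p = 0.0221). Below number 1000 (2 P+eMSC and 5 P mice) and above 2000 (5 P+eMSC and 3 P mice) the shift of *Tgfb3* was 1.99 and 2.24, and that of *Tgfbr1* 1.23 and 0.99. It was 1.52 and -0.09 for *Tgfb1* and -0.10 and 1.24 for *Tgfb2*.

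At 1 week 0 of the 4 genes and 0% of the panel were called between P+eMSC and P, with 0 genes of the panel at an unadjusted p below 0.05 in the exact test and by limma 0 of the 4 at the same threshold. Against either panel median 5 genes of the panel were called, all lower in P+eMSC, and 0 of the 4 members. The shifts were 0.68 for *Tgfb2* (-1.14 to 1.55), 0.35 for *Tgfb3* (-1.18 to 1.61), 0.31 for *Tgfbr1* (-1.65 to 1.54) and -0.19 for *Tgfb1* (-1.93 to 2.03).

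P+eMSC was also set against the sham controls. At 6 weeks 0 of the 4 genes and 0% of the panel were called, and limma called 0 of the 4. Against the panel median 0 genes were called and against that over 23 genes 2, 1 higher and 1 lower, with 0 of the 4 members in both. The shift was 0.19 for *Tgfb3* (-1.12 to 1.36), 0.19 for *Tgfbr1* (-0.76 to 1.26), 0.22 for *Tgfb1* (-1.31 to 1.90) and -0.65 for *Tgfb2* (-1.26 to 0.50). *Tgfb2* was the member with most P+eMSC mice below every sham mouse, 4 of 7. At 1 week 0 of the 4 genes and 0% of the panel were called as well, again with 0 of the 4 by limma, with shifts of -0.39 (*Tgfb3*), -0.34 (*Tgfbr1*), -0.23 (*Tgfb2*) and 0.19 (*Tgfb1*).

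**Figure D2:**
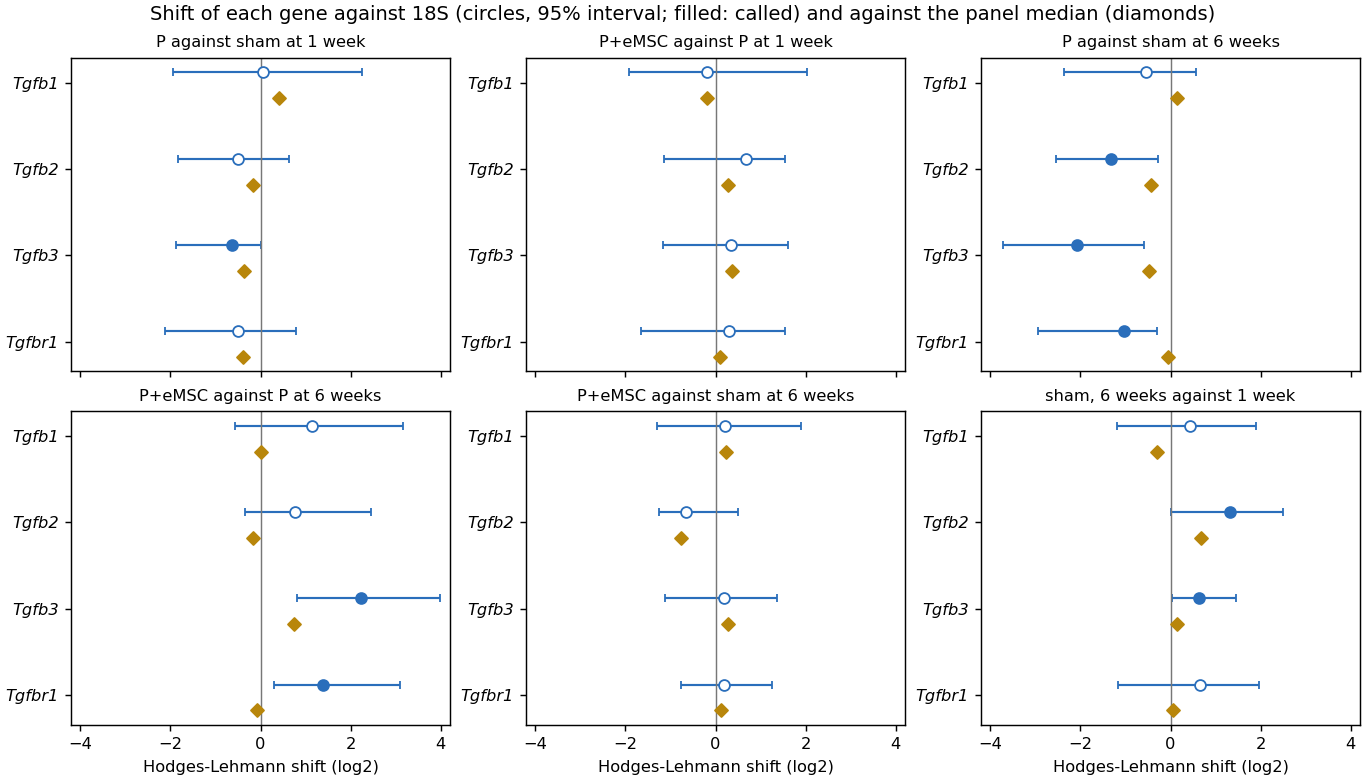
Hodges-Lehmann shift (log2) of each gene in 6 comparisons, against 18S (circles with the 95% interval, filled where called) and against the panel median (diamonds). At 6 weeks the circles of *Tgfb3* lie at -2.07 (P against sham) and 2.24 (P+eMSC against P), and the diamonds at -0.48 and 0.75.

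Between the weeks, *Tgfb2* and *Tgfb3* were called in the sham controls. They were 2 of the 4 members and the 2 genes called on the panel (3.7% of 54). That share lies below the unadjusted p threshold of the study, so the number of calls was no larger than chance alone would give. A change of the sham controls with the week was therefore not shown. *Tgfb2* was 2.51-fold higher at 6 weeks than at 1 week (shift 1.33, 0.01 to 2.50, exact p = 0.0350, adjusted p = 0.901) and *Tgfb3* 1.56-fold higher (shift 0.64, 0.02 to 1.45, exact p = 0.0350, adjusted p = 0.901). No sham mouse of 6 weeks had *Tgfb2* above mouse 2269 of 1 week, the highest of that group at -8.91. The shifts of all 4 genes lay above 0 against 18S, with a median of 0.65 beside 0.51 over the panel, and that of *Tgfb1* turned to -0.30 against the panel median. Against the panel median *Tgfb2* kept its call (0.68, exact p = 0.0221) and was the 1 gene of 54 called, and *Tgfb3* did not (0.15, exact p = 0.945). By limma, fitted over the 54 genes, neither passed (adjusted p = 0.997 for both). Leaving out mouse 119, 120, 125, 126, 400 or 2354 ended the call of *Tgfb2* (exact p up to 0.0649), and leaving out mouse 119, 120, 122, 401, 2346 or 2354 ended that of *Tgfb3* (exact p up to 0.0732).

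In P 0 of the 4 genes and 0% of the panel were called between 6 weeks and 1 week, and in P+eMSC likewise 0 of the 4 and 0%, with 0 of the 4 by limma in both. The shifts in P were 0.73 for *Tgfb2*, -0.01 for *Tgfbr1*, -0.48 for *Tgfb3* and -0.82 for *Tgfb1*. In P+eMSC they were 1.19 for *Tgfb3*, 0.93 for *Tgfbr1*, 0.88 for *Tgfb2* and 0.51 for *Tgfb1*, beside a panel median of 0.88. The mice of the 2 weeks are different animals.

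Whether a difference between treatments changed with the week was tested as an interaction in limma over the 54 genes, and 0% of them were called in any of the 3 contrasts at an adjusted p below 0.05, with 0 at an unadjusted p below 0.05. For P+eMSC against P, the difference at 6 weeks minus that at 1 week was 2.57 ± 1.30 (SE) for *Tgfb3* (adjusted p = 0.485), 2.23 ± 1.32 for *Tgfbr1*, 1.96 ± 1.43 for *Tgfb1* and 0.68 ± 0.94 for *Tgfb2*, on log2. For P against the sham controls it was -2.10 ± 1.32 for *Tgfb3*, -1.51 ± 1.35 for *Tgfbr1*, -1.64 ± 1.46 for *Tgfb1* and -0.90 ± 0.96 for *Tgfb2* (adjusted p = 0.736 for each). With 1 mouse left out at a time, P+eMSC against P ran from 1.49 to 2.96 for *Tgfb3* and from 1.14 to 2.52 for *Tgfbr1*. For *Tgfb1* it ran from 0.90 to 2.365 and for *Tgfb2* from 0.20 to 0.93. P against the sham controls ran from -2.49 to -1.02 for *Tgfb3* and from -1.87 to -0.43 for *Tgfbr1*. For *Tgfb1* it ran from -2.04 to -0.57 and for *Tgfb2* from -1.20 to -0.43. Over all alternatives, the panel medians among them, P+eMSC against P went as low as 0.36 for *Tgfb3* and 0.013 for *Tgfbr1*. It went as low as -0.25 for *Tgfb1* and -0.50 for *Tgfb2*. P against the sham controls then reached -0.24 for *Tgfb3*, 0.34 for *Tgfbr1*, 0.22 for *Tgfb1* and -0.086 for *Tgfb2* at its highest. No interaction of the 4 genes was called in any of these cases. A call at 6 weeks that was not made at 1 week was therefore not shown to differ between the weeks.

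The balance of 2 genes in a mouse, the difference of their levels, does not depend on 18S or on the amount of cDNA. A balance compares mice, since the absolute gap between 2 assays also holds their amplification efficiencies. *Tgfb2* had the lowest level of the 3 ligands in all 40 mice with a value for each, and the order *Tgfb1* above *Tgfb3* above *Tgfb2* held in 36. In the other 4 mice *Tgfb3* lay above *Tgfb1*, by 0.12 to 0.17 in 3 sham mice and by 1.26 in P+eMSC mouse 2399 at 6 weeks. The spread of *Tgfb3* against *Tgfb2* about the group means was 0.58 (pooled SD), that of *Tgfb1* against *Tgfb2* 1.14 and that of *Tgfb1* against *Tgfb3* 1.10.

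At 6 weeks the gap of *Tgfb1* over *Tgfb2* ran from 1.19 to 2.73 in the sham controls. In P it fell into 4 mice at 1.17 to 2.001 and 3 mice, 2356, 2307 and 53, at 3.32, 5.23 and 5.54. In P+eMSC it ran from 0.88 to 3.87. The same 3 P mice had *Tgfb1* over *Tgfb3* by 3.17, 3.93 and 3.36, while the other 5 P mice lay between 0.19 and 1.94 and the sham controls between -0.17 and 1.35. No ligand pair was called between P and the sham controls (shift 0.60 for *Tgfb1* minus *Tgfb2*, exact p = 0.366, 1.12 for *Tgfb1* minus *Tgfb3*, exact p = 0.142, and -0.11 for *Tgfb3* minus *Tgfb2*, exact p = 0.445). Without mice 52 and 2356 these shifts were 0.32 (exact p = 0.589), 0.50 (exact p = 0.394) and -0.065 (exact p = 0.699) in the same order. Among mice numbered below 1000 the shift of *Tgfb1* minus *Tgfb3* was -0.13 (5 P and 4 sham mice), and above 2000 it was 3.33 (3 P and 2 sham mice). Between P+eMSC and P at 6 weeks no ligand pair was called either. *Tgfb1* minus *Tgfb3* shifted by -1.04 (exact p = 0.189) and *Tgfb1* minus *Tgfb2* by -0.16. Without mice 52 and 2356 these were -0.42 (exact p = 0.445) and 0.041.

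*Tgfbr1* minus *Tgfb3* was the 1 of 6 pairs of these genes called in P against the sham controls at 6 weeks, beside 10.4% of the 1431 pairs of target genes. It was -0.70 ± 0.49 (SD, n = 8) in P and -1.40 ± 0.40 (SD, n = 6) in the sham controls (shift 0.67, exact p = 0.0127, adjusted p = 0.431 over all pairs), so the ligand was lower relative to its receptor gene in P, and 5 of 8 P mice lay above every sham mouse. The same pair was the 1 of 6 called in P+eMSC against P at 6 weeks, beside 3.98% of all pairs, a comparison with the same 8 P mice. It stood at -1.37 ± 0.58 (SD, n = 7) in P+eMSC (shift -0.77, exact p = 0.0289, adjusted p = 0.854), with 5 of 7 below every P mouse. Without mice 52 and 2356 it was not called between P+eMSC and P (-0.59, exact p = 0.0734) and was called between P and the sham controls (0.54, exact p = 0.0411). Leaving out 1 mouse ended the call between P+eMSC and P in 7 of 15 cases (mice 529, 60, 2399, 2351, 2400, 2356 and 2307), with exact p up to 0.0593.

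*Tgfb3* minus *Tgfb2* was 2.01 ± 0.59 (SD, n = 7) in P+eMSC at 6 weeks, 1.32 ± 0.25 (SD, n = 6) in the sham controls and 1.13 ± 0.68 (SD, n = 7) in P. Of the 7 P+eMSC mice, 5 lay above every sham mouse. Neither difference passed the Mann-Whitney test (shift 0.80 against the sham controls, exact p = 0.0734, and 0.86 against P, exact p = 0.0973), and both passed an exact permutation test of the means (p = 0.0256 and 0.0332). Without mice 52 and 2356 the shift against P was 0.79 (exact p = 0.181, Mann-Whitney test). The permutation test was not run without them. *Tgfbr1* minus *Tgfb2* was the 1 of 6 pairs called between P+eMSC and the sham controls at 6 weeks, beside 1.75% of all pairs, at 0.64 ± 0.41 (SD, n = 7) against -0.08 ± 0.33 (SD, n = 6) (shift 0.70, exact p = 0.00466, adjusted p = 1).

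In the sham controls 3 of 6 pairs were called between the weeks, beside 3.35% of all pairs, and all 3 hold *Tgfb2*. *Tgfb1* minus *Tgfb2* was 1.85 ± 0.63 (SD, n = 6) at 6 weeks and 2.77 ± 0.64 (SD, n = 7) at 1 week (exact p = 0.05128). *Tgfb3* minus *Tgfb2* went from 1.91 ± 0.49 at 1 week to 1.32 ± 0.25 at 6 weeks (exact p = 0.05128), and *Tgfbr1* minus *Tgfb2* from 0.77 ± 0.70 to -0.08 ± 0.33 (exact p = 0.00816). Both values of 0.05128 lie at the edge of the threshold and above 0.05, and the adjusted p of each pair was 1. Mouse 400 of 1 week stood at 2.22 in *Tgfbr1* minus *Tgfb2*. Leaving out 1 mouse ended the call of *Tgfb3* minus *Tgfb2* in 11 of 13 cases (mice 119, 120, 122, 123, 125, 126, 400, 408, 2277, 2346 and 2354, exact p up to 0.0931) and that of *Tgfb1* minus *Tgfb2* in 8 of 13 (mice 119, 122, 123, 126, 2269, 2277, 2346 and 2354, exact p up to 0.106). Neither was called within the animal number series (exact p = 0.0609 and 0.0622). *Tgfbr1* minus *Tgfb2* kept its call in all 13 cases.

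In the other balance comparisons 0 of 6 pairs were called, beside 10.7% of all pairs for P+eMSC against P at 1 week, 10.6% for P against sham at 1 week, 0.908% for P+eMSC against sham at 1 week, 2.8% for P between the weeks and 1.68% for P+eMSC between the weeks. The smallest unadjusted exact p among the pairs in these 5 comparisons was 0.138, for *Tgfb3* minus *Tgfb2* in P between the weeks.

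**Figure D3:**
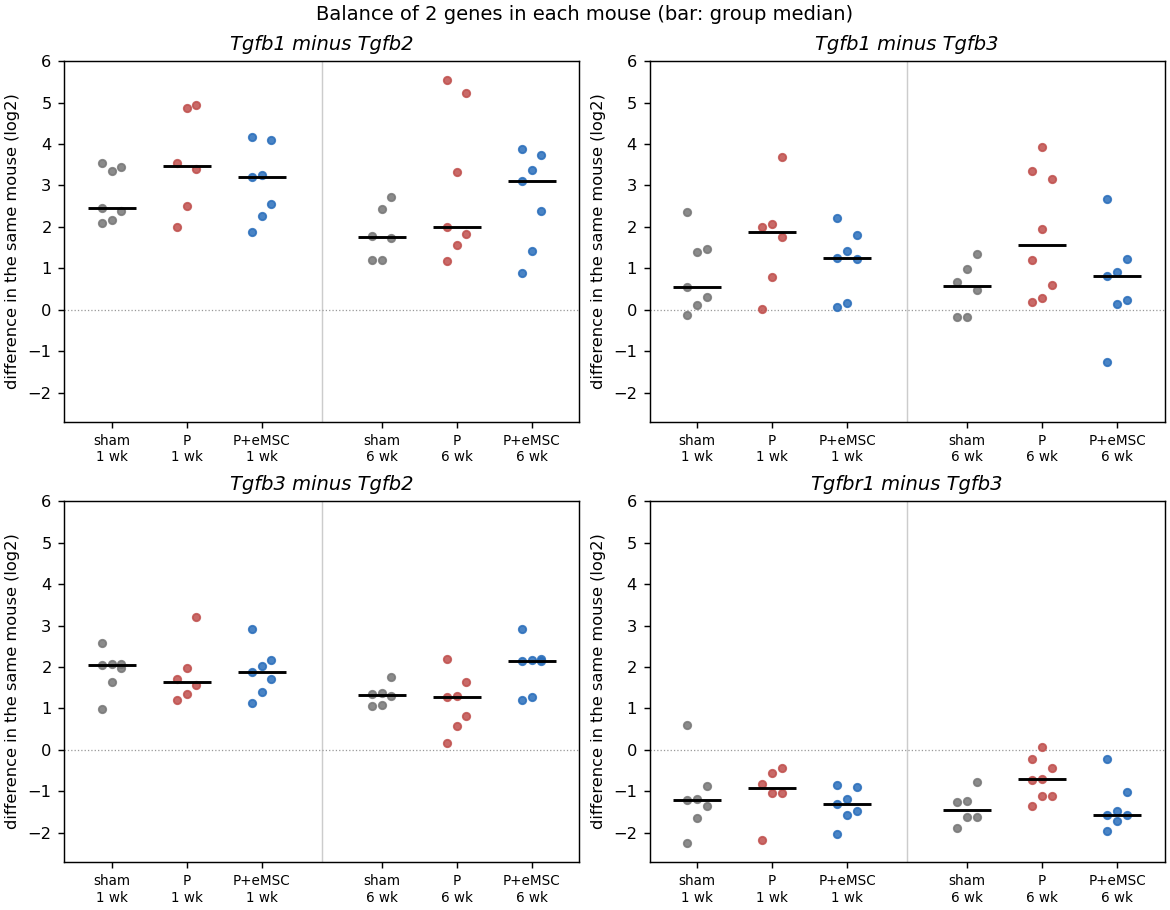
Difference of the levels of 2 genes in the same mouse (log2) for the 3 ligand pairs and for *Tgfbr1* minus *Tgfb3*, by treatment and week, with a bar at the group median. In P at 6 weeks 3 mice lie at 3.32 to 5.54 in *Tgfb1* minus *Tgfb2*, above the highest sham control of that week at 2.73.

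Other genes of the pathway were read from lists. Of 7 genes known to be raised by TGF-beta in fibroblasts, 2 fell against 18S in P against the sham controls at 6 weeks and 0 rose, beside 25.9% of the panel, with a median shift of -0.84 beside -0.83 over the panel. *Timp3*, an inhibitor of metalloproteinases bound to the matrix, fell by 1.85 on the log2 scale (exact p = 0.00133, adjusted p = 0.0360), and *Ctgf*, a matricellular protein often used as a readout of TGF-beta, fell by 1.04 (exact p = 0.0221). The same 2 genes were the ones higher in P+eMSC than in P at 6 weeks (*Timp3* 1.90, exact p = 0.0205, *Ctgf* 1.27, exact p = 0.0262), beside 18.5% of the panel, and the list's median was 1.27 beside 1.16 over the panel. Both comparisons, here and for the next list, use the same P mice. Against the panel median neither was called between P+eMSC and P (*Timp3* 0.52, exact p = 0.0973, *Ctgf* 0.23, exact p = 0.259). Between P and the sham controls it left *Timp3* called (-0.77, exact p = 0.0350) and *Ctgf* at -0.05 (exact p = 0.945), and over the 23 genes *Timp3* was not called either (-0.81, exact p = 0.0593). Without mice 52 and 2356 both genes kept their calls against 18S in both comparisons. The collagen genes *Col1a1*, *Col3a1*, *Col6a1* and *Col6a3* stood at -1.004 to -0.74 and at 0.95 to 1.44 in these 2 comparisons, and none of the 4 passed. They are also the 4 fibroblast markers given above, so the list and the markers are not separate readings. *Timp1* stood at 0.35 and -0.51.

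Of the 3 genes whose products take part in releasing latent TGF-beta, the integrin subunit *Itgb1* fell in P against the sham controls at 6 weeks (shift -1.64, exact p = 0.00466), and *Itgb1* (1.68, exact p = 0.0140) and the gelatinase *Mmp2* (1.41, exact p = 0.0401) were higher in P+eMSC than in P. These were 1 and 2 of 3 genes, beside 25.9% and 18.5% of the panel, and the list's median was -1.30 beside -0.83 and 1.41 beside 1.16. Against the panel median neither *Itgb1* (-0.53, exact p = 0.138, and 0.30, exact p = 0.259) nor *Mmp2* (-0.09, exact p = 0.731, and 0.06, exact p = 0.902) was called in P against the sham controls or in P+eMSC against P. Without mice 52 and 2356 *Itgb1* kept both calls and *Mmp2* was not called (1.33, exact p = 0.0734, in P+eMSC against P). *Mmp2* stood against 18S at -1.30 in P against the sham controls (exact p = 0.0813), and the gelatinase *Mmp9* at 1.30 and -0.85 in the 2 comparisons. *Mmp9* was called higher in P than in the sham controls against the panel median (1.84, exact p = 0.05128, and over the 23 genes 1.82, exact p = 0.0140). In the other 7 comparisons 0 genes of either list were called against 18S (exact p of 0.0728 and more) or against either panel median.

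**Figure D4:**
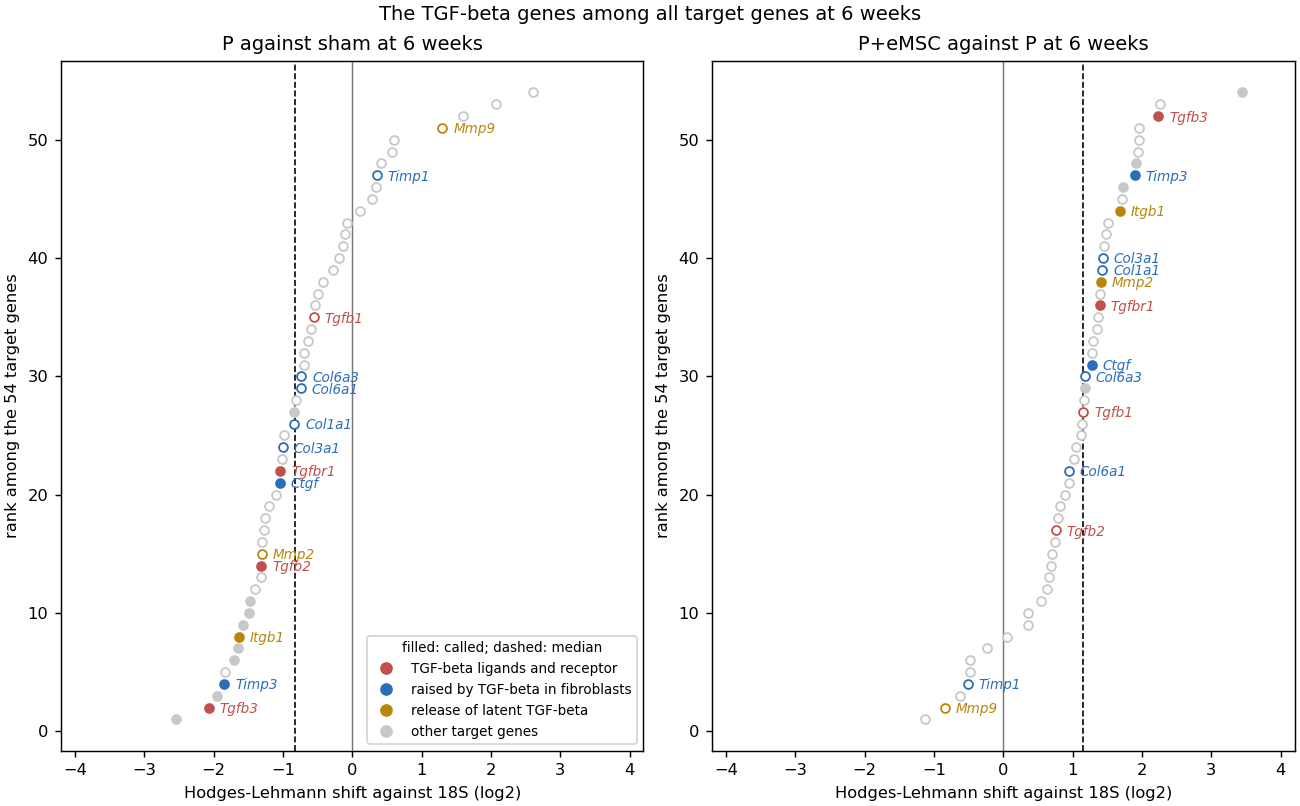
Hodges-Lehmann shift against 18S (log2) of all 54 target genes in rank order, for P against sham and for P+eMSC against P at 6 weeks, with the TGF-beta genes and the 2 lists in colour, filled points where called and a dashed line at the median. *Tgfb3* lies near the low end at -2.07 on the left and near the high end at 2.24 on the right, while the panel medians are -0.83 and 1.16.

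The genes that followed each member most closely were read from the SD, over mice, of the difference of the 2 levels in a mouse. For *Tgfb2* they were *Itgb1* (0.54), *Tgfbr1* (0.59) and *Tgfb3* (0.63), over 40 mice, where the median over the panel was 1.35. *Tgfb3* was nearest to *Pdgfa* (0.58), a growth factor for mesenchymal cells, *Tgfbr1* (0.61) and *Itgb1* (0.62), and *Tgfbr1* to *Itgb1* (0.54), *Tgfb2* (0.59) and *Tgfb3* (0.61). *Tgfb1* was nearest to *Mmp2* (0.54), the collagen gene *Col6a2* (0.61) and the adhesion molecule *Icam1* (0.67), and the other members ranked 18th (*Tgfbr1*, 0.95), 25th (*Tgfb3*, 1.15) and 28th (*Tgfb2*, 1.17) for it. These SDs are over the 40 or 41 mice of all 6 groups, which share their treatments, and without mouse 52 *Cxcl12* (0.60) took the place of *Icam1*. For *Tgfb3* the SD to *Pdgfa* was over 40 mice and those to *Tgfbr1* and *Itgb1* over 41. Without mouse 52 *Itgb1* (0.57) was nearest to *Tgfb3*, before *Pdgfa* (0.58) and *Tgfbr1* (0.61).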

How the data were processed

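RNA was extracted by the authors from tissue of each mouse, reverse transcribed, preamplified for 14 cycles and measured with TaqMan assays on a dynamic array (Fluidigm), whose software gave the Ct. The deposited Ct values were 1 per gene and mouse, with 999 where undetected, and undetected values were left out. A second deposited table held the fold change (ratio) of each mouse to the sham controls, calculated by the authors with 18S as reference. It was used as a check and as an alternative. For the 4 TGF-beta genes, the ones checked, it equalled the fold calculated here for all mice but 2356, within 0.01 on log2.

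Levels (18S Ct minus gene Ct) were compared by exact two-sided Mann-Whitney U tests for the 54 target genes with at least 4 values per group, called at the study's threshold of 0.0513 unadjusted, with Benjamini-Hochberg adjustment over all genes. Intervals are 95% and belong to the Hodges-Lehmann shift. Balances were tested for all 1431 pairs of genes, and interactions by limma 3.58.1 in R 4.3.3 with all 6 groups in 1 fit. Python 3.11.15 was used with scipy 1.17.1, pandas 2.3.3, numpy 2.4.6 and, for plots, matplotlib 3.10.9, and the code was tested on simulated data. Groups came from the labels. The 4 genes were named in every comparison, the 7 and 3 pathway genes as counts with the values of those called, and for each member the 3 genes nearest to it. The first list had held 1 gene beyond these 7, which is not reported here. Values of listed genes that were not called were added after they had been seen. The members, lists, markers and tests were chosen with earlier results of these data known. A Ct carries no read depth, so the number of mice limits the precision. Preamplification and a single reference gene can move all genes of a mouse together, for which the median Ct of the panel (48 genes) was tried in place of 18S. The other alternatives were a floor for undetected values, a filter at a median Ct of 25, other thresholds, limma, an exact permutation of the means, tests within the animal number series, the deposited fold changes, and leaving out mice. The pathway lists were read against the panel medians and without mice 52 and 2356 after their values had been seen.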

Additional observations from a re-analysis of the deposited data

Results flagged for a closer look

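In 7 of 60 groups of values checked, 1 mouse lay far from the others of its group relative to the group's range (Dixon's criterion), where chance flags about 1 group in 20. Of these, 3 were P mouse 52 at 6 weeks, with a level of -16.52 for *Tgfb1* (nearest mouse -9.71), -18.46 for *Tgfb3* (nearest -11.61) and -19.18 for *Tgfbr1* (nearest -12.05). This mouse had 31 of 54 genes undetected. P+eMSC mouse 78 at 1 week stood at -13.21 for *Tgfb2* (nearest -11.20) and had 6 genes undetected. Sham mouse 123 at 6 weeks stood at -10.57 for *Tgfbr1*, against -9.53 in the nearest mouse. In the balances, sham mouse 400 at 1 week had *Tgfbr1* minus *Tgfb2* at 2.22 (nearest 0.895), and P mouse 2396 at 1 week had *Tgfbr1* minus *Tgfb3* at -2.18 (nearest -1.04).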

How the results depend on the processing

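The choice of reference changed most calls on levels, and the cause was not tested. Levels and pairs called are counted in this section over the 4 members and their 6 pairs only. With the panel median, the members called numbered 0 (P against sham, 6 weeks), 1 (P+eMSC against P, 6 weeks) and 1 (sham between weeks). With the panel median over the 23 genes detected in all mice, an alternative chosen after seeing the data, they numbered 0 in these and in P against sham at 1 week. Reversed values are given with the first panel median and then, where there is a second value, the other. For *Tgfb1* they were 0.14 and 0.19 (P against sham, 6 weeks), -0.25 and -0.11 (P+eMSC between weeks), -0.30 and -0.15 (sham between weeks), with interactions of 0.16 and 0.22 (P, sham), -0.23 and -0.25 (P+eMSC, P) and -0.068 and -0.031 (P+eMSC, sham), and with the second alone -0.078 (P+eMSC against P, 6 weeks). For *Tgfb2* they were -0.16 and -0.14 (P+eMSC against P, 6 weeks), 0.093 and 0.11 (P+eMSC against sham, 1 week) and interactions of -0.45 and -0.50 (P+eMSC, P). For *Tgfbr1* they were -0.073 and -0.049 (P+eMSC against P, 6 weeks), 0.12 and 0.51 (P between weeks) and interactions of 0.30 and 0.34 (P, sham), and with the second alone 0.15 (P against sham, 6 weeks) and -0.0093 (sham between weeks).

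At an adjusted p below 0.05, 0 levels of the members and 0 of their pairs were called in any comparison. At p of 0.05 or less, 0 levels (P against sham, 1 week) and 1 pair (sham between weeks) were called. Limma called 0 levels in P against sham at 1 week and in sham between weeks. The permutation of means called 0 (P against sham, 1 week), 1 (P+eMSC between weeks) and 1 (sham between weeks) levels, and 2 pairs in P+eMSC against P and against sham at 6 weeks. Within the number series, 2 pairs (P+eMSC against P, 6 weeks) and 1 pair (sham between weeks) were called. Without mice 52 and 2356, 0 pairs were called in P+eMSC against P at 6 weeks, and reversed values were 0.041 (*Tgfb1* minus *Tgfb2*, P+eMSC against P, 6 weeks), -0.41 (*Tgfb1* minus *Tgfb3*, P between weeks) and 0.36 (*Tgfbr1*, P between weeks). Other reversed values were 0.40 (*Tgfb1* minus *Tgfb2*, P+eMSC against P, 6 weeks, undetected values at a floor), -0.024 (*Tgfb1*, P+eMSC against sham, 1 week, permutation and limma) and, within the series, -0.56 (*Tgfb1*, P against sham, 1 week), 0.092 (*Tgfb1*, P+eMSC against P, 1 week), 0.076 (*Tgfb3* minus *Tgfb2*, P against sham, 1 week) and -0.017 (*Tgfb3* minus *Tgfb2*, P+eMSC between weeks).

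Leaving out each mouse in turn, *Tgfb3*, *Tgfb2* and *Tgfbr1* in P against sham and *Tgfb3* and *Tgfbr1* in P+eMSC against P at 6 weeks kept direction and call (*Tgfb3* -2.32 to -1.92 and 1.72 to 2.59). Levels called ranged from 2 to 3 (P+eMSC against P, 6 weeks), 0 to 1 (P against sham, 1 week), 0 to 2 (sham between weeks) and 0 to 2 (P+eMSC between weeks). Pairs called ranged from 0 to 2 (P+eMSC against P, 6 weeks), 0 to 1 (the same, 1 week), 0 to 1 (P against sham, 1 week), 1 to 2 (P+eMSC against sham, 6 weeks), 1 to 3 (sham between weeks) and 0 to 1 (P between weeks). Values that crossed 0, none of them called, were *Tgfb1* minus *Tgfb2* (-0.50 to 0.40, P+eMSC against P, 6 weeks), *Tgfb1* (-0.64 to 0.25, P+eMSC against P, 1 week, -0.33 to 0.94, P against sham, 1 week, and -0.13 to 0.58, P+eMSC against sham, 6 weeks), *Tgfb3* (-0.087 to 0.49) and *Tgfb1* minus *Tgfb3* (-0.099 to 0.32) in the last comparison, and *Tgfbr1* (-0.50 to 0.27) and *Tgfb1* minus *Tgfb3* (-0.41 to 0.34) in P between weeks. In P+eMSC against sham at 1 week these were *Tgfb1* (-0.15 to 0.40), *Tgfb2* (-0.40 to 0.30), *Tgfbr1* (-0.69 to 0.046), *Tgfb1* minus *Tgfb2* (-0.013 to 0.60) and *Tgfb3* minus *Tgfb2* (-0.18 to 0.014), and the interaction of *Tgfb1* (P+eMSC, sham) ran from -0.18 to 0.68. A floor for undetected values, the Ct filter and the deposited fold changes left the number of calls within 1.5 times in each comparison. *Gapdh* as reference was not run, as the table used here has no such row. No paired analysis was possible because each mouse belongs to 1 group.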

Other observations

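Some mice held one end of their group in all 4 genes. P+eMSC mouse 78 was lowest at 1 week, at -10.96 in *Tgfb1*, -13.21 in *Tgfb2*, -11.03 in *Tgfb3* and -13.06 in *Tgfbr1*. At 6 weeks P+eMSC mouse 60 was lowest, at -8.82, -11.21, -9.04 and -10.52, and P+eMSC mouse 2351 highest, at -5.33, -8.70, -6.55 and -8.27 in the same order. P mouse 53 at 6 weeks had the lowest *Tgfb2* (-13.80) of the 40 mice with a value, mouse 52 being undetected, with *Tgfb1* at -8.26, inside the range of the sham controls.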
